A study of Mus musculus with 12 samples.

Results

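The GIMAP genes (GTPases of immunity-associated proteins) were followed across resting and activated central regulatory T (cTreg) cells. Of 22180 genes measured with 1 gene symbol, 8 belong to the family: Gimap1, Gimap3, Gimap4, Gimap5, Gimap6, Gimap7, Gimap8 and Gimap9. Each was taken as the transcript cluster that carries its symbol alone. The brightest cluster was kept for Gimap1, which has 2. All 8 genes lay above the dim level of 4.51 on the log2 scale, the 40th percentile of all values, so none was lost to low signal.

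The RNA came from mice with a Foxp3-YFP transgene on a C57BL/6 background, and the cells were sorted from spleen and peripheral lymph nodes as CD4+ YFP+ CD62L-high CD44-low. Of 4 groups of 3 arrays, 1 was unstimulated (0 h) and labelled as treated with DMSO, the vehicle. The other 3 groups were activated for 20 h with anti-CD3 and anti-CD28 antibodies and IL-2, with DMSO, with 50 nM Torin 1 or with 500 nM PP242, both inhibitors of the mTOR kinase. Cells kept in culture for 20 h but left unstimulated were not among the groups, so activation and 20 h of culture cannot be told apart. The samples were bulk RNA, in which fewer cells of a type and less RNA per cell cannot be told apart. Age and sex of the mice were not given in the labels.

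GIMAP proteins are GTP-binding proteins of lymphocytes. Several of them sit on intracellular membranes, including those of the endoplasmic reticulum, lysosome and Golgi. The genes of the family lie side by side in 1 cluster. The proteins are best known for the survival of resting lymphocytes: rats and mice that lack functional Gimap5 lose peripheral T cells. mTOR is the kinase through which antigen, costimulation and IL-2 drive growth and metabolism of T cells, and quiescent T cells keep its activity low. It was asked how the family behaves when cTreg cells leave rest, and how it behaves when mTOR is blocked meanwhile.

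The order of the family in RefSeq is Gimap8, Gimap9, Gimap4, Gimap6, Gimap7, Gimap1, Gimap5 and Gimap3 along mouse chromosome 6. Gimap6 and Gimap3 are read from the minus strand and the other 6 from the plus strand. To show the letters in front of the members that the results turn on, the 250 bases upstream of the RefSeq start of Gimap4 (the member with the largest fall), Gimap6 (called in each comparison with DMSO under all 22 alternatives), Gimap5 (the member with no fall) and its neighbour Gimap3 are printed 5′ to 3′ on the strand of the gene, with capitals for a FOXO motif. The build is GRCm38.p6, and the windows are chr6:48684328-48684577 on the plus strand, chr6:48708245-48708494 on the minus strand, chr6:48745947-48746196 on the plus strand and chr6:48770852-48771101 on the minus strand.
Gimap4: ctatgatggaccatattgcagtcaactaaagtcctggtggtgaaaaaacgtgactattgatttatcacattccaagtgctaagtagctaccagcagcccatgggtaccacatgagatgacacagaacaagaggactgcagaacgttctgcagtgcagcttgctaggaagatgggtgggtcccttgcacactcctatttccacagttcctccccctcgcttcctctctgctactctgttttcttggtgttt
Gimap6: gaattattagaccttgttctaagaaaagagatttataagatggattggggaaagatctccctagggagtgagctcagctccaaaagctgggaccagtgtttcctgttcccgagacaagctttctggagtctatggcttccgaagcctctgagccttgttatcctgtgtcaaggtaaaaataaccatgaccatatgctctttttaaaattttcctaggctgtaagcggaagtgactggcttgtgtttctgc
Gimap5: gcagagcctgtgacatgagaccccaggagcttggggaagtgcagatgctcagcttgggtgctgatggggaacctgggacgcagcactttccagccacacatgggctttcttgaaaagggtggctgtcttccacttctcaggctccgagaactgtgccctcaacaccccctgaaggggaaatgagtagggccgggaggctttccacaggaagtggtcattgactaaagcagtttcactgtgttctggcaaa
Gimap3: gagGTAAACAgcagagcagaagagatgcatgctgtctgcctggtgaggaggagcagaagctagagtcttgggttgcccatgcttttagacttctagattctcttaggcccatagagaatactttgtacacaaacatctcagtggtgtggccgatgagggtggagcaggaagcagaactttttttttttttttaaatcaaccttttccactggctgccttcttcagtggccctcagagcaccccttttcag

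Motifs of 5 factor families were counted on both strands in the 9 RefSeq windows of the members, which hold 250 bases before a start and 50 after it. Gimap8 has 2 starts. The FOXO letters GTAAACA were found in 1 of the 9 windows, that of Gimap3, at position -247 from the start, and in 3.65% of all 32851 windows. The TCF/LEF letters CTTTGAA were found in the window of Gimap7, at position 43 from the start, and in 5.14% of all windows. The RUNX letters TGTGGTT (5.27% of all windows), the ETS letters CCGGAAG (8.86%) and the KLF letters CACACCC (7.95%) were in none of the 9. The GC content of 7 of the 9 windows lay below the median of 52.7% of all windows, between 43.3% and 50.7%, and those of Gimap5 (55.7%) and Gimap9 (57.3%) lay above it. The windows held 2 to 4 CpG in 8 cases and 8 in that of Gimap9, against a median of 7. No motif was shared by 2 members.

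The cells carried the markers of their label. The 9 T and Treg markers, Foxp3 among them, averaged between 10.4 and 10.6 on every array. Of the 9, Cd3e, Cd3g and Cd4 were called higher on activation, and Foxp3 (-0.61, adjusted p = 0.000163 by limma) and Ctla4 (-0.53, 0.0012) lower. With PP242 both were called higher than with DMSO (0.30 and 0.34), and with Torin 1 none of the 9 was called against DMSO. With Torin 1 against unstimulated cells, Cd3e (0.46) was called higher and Foxp3 (-0.33) lower. With PP242 against unstimulated cells, Cd3d (0.53), Cd3e (0.42) and Cd3g (0.54) were called higher. Of all genes 4.42% and 1.73% were called higher in these 2 comparisons, and 3.31% and 1.34% lower. The part of the 9 markers in the family's changes was not tested. Of the CD8 T cell markers, Cd8a and Cd8b1, the mean lay between 5.81 and 6.34 on the 12 arrays, and the group means of Cd8b1 were 8.08 in unstimulated cells, 7.68 with DMSO, 7.40 with Torin 1 and 7.42 with PP242. B, NK, myeloid and endothelial marker lists averaged between 3.76 and 4.98, near or under the dim level. Single markers lay higher, such as Cd79b (5.65) and Lyz2 (5.45) in unstimulated cells. On at least 3 arrays, 4 of 6 B, 2 of 5 NK, 5 of 7 myeloid and 3 of 7 endothelial markers passed the dim level. Of all 22180 genes, 14812 did. The array medians ran from 4.95 to 5.08 and the correlations between arrays from 0.964 to 0.987. All values are log2 expression. A value of 1 gene is compared only between groups, because the brightness of different probes is not on 1 scale.

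Of the 8 members, 7 fell on activation and Gimap5 did not. Gimap4, which in mice speeds the death of T cells, was 1.84-fold lower in activated cells with DMSO than in unstimulated cells. Gimap8, which has several GTP-binding domains, was 1.76-fold lower and Gimap6, a binding partner of the autophagy protein GABARAPL2, 1.72-fold lower. Gimap5, which is needed for the survival of resting T cells and sits on lysosomes, had almost the same mean in both groups.

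Gimap4 measured 11.30, 11.40 and 11.33 on the unstimulated arrays and 10.51, 10.44 and 10.44 on the DMSO arrays. Gimap8 measured 9.19, 9.15 and 9.27 on the unstimulated arrays and 8.54, 8.32 and 8.29 on the DMSO arrays. In both genes every unstimulated array lay above every DMSO array. Gimap6 measured 9.44, 9.40 and 9.44 on the unstimulated arrays and 8.71, 8.80 and 8.43 on the DMSO arrays. Gimap3, the close relative of Gimap5, measured 9.46, 9.69 and 9.65 before and 9.02, 8.87 and 8.85 after activation. These groups did not overlap either, and the lowest value of Gimap6 was that of DMSO replicate 3.

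The log2 changes on activation, with SE, were -0.88 ± 0.09 for Gimap4 (adjusted p = 8.75e-06), -0.82 ± 0.12 for Gimap8 (0.000139), -0.78 ± 0.10 for Gimap6 (7.39e-05) and -0.68 ± 0.10 for Gimap3 (0.000241), from limma with Benjamini-Hochberg adjustment over the 22180 genes. A gene is called where this adjusted p is under 0.05. Gimap9 changed by -0.45 ± 0.10 (0.00322) and Gimap7, which in humans stimulates GTP hydrolysis by its relative GIMAP2, by -0.39 ± 0.10 (0.0103). Gimap1, needed for mature T and B cells in mice, changed by -0.37 ± 0.12 (0.0432). In Gimap9 the unstimulated arrays measured 9.54, 9.60 and 9.76 and the DMSO arrays 9.26, 9.11 and 9.17. In Gimap7 they measured 7.74, 7.92 and 7.85 before and 7.47, 7.52 and 7.35 after activation, and the groups lay apart in both genes. The p-values set a change against the spread of arrays within groups. That spread was pooled over all groups and moderated by limma across genes.

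Thus 7 of 8 members were called lower, where 12.1% of all genes were, and none was called higher, where 11.8% were. The same 7 had all DMSO arrays under all unstimulated arrays, as had 21.1% of all genes. The median change of the family was -0.57, beside -0.04 for all genes. The call of Gimap1 was lost under 14 of 22 alternative settings, among them without DMSO replicate 3, the array with its lowest value (change -0.23). Gimap1 measured 7.71, 7.91 and 7.82 on the unstimulated arrays and 7.48, 7.69 and 7.18 on the DMSO arrays. The calls of the other 6 held under all 22.

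**Figure D1:**
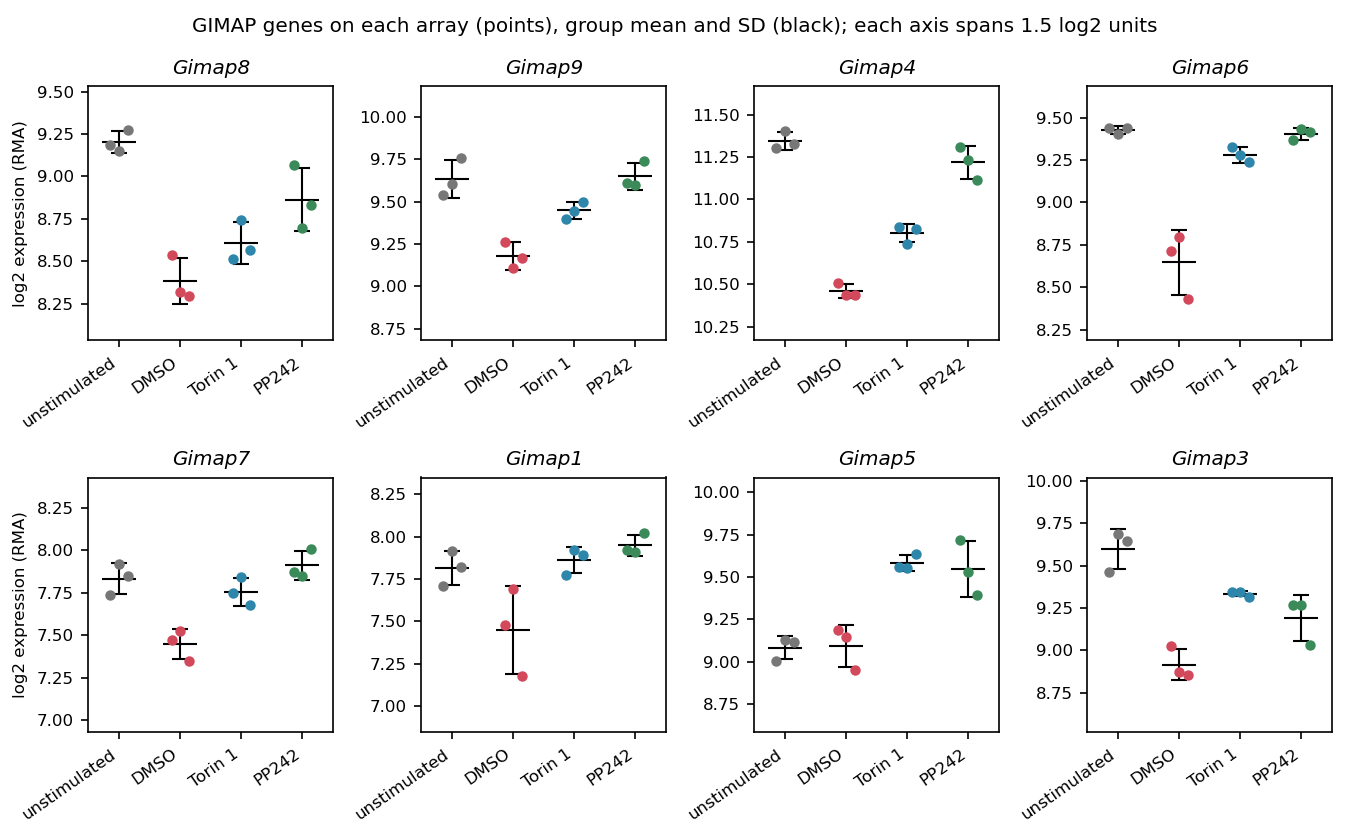
Log2 expression (RMA, vertical axis) of the 8 GIMAP genes on each of the 12 arrays, by group (horizontal axis). Coloured points are arrays, the black bar is the mean and the whiskers the SD of 3 arrays; every axis spans 1.5 log2 units. DMSO has the lowest mean for every gene but Gimap5, whose unstimulated and DMSO arrays overlap and all lie between 8.95 and 9.19.

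Gimap5 measured 9.004, 9.13 and 9.12 on the unstimulated arrays and 9.19, 9.14 and 8.95 on the DMSO arrays, so the groups overlapped. Its log2 change was 0.01 ± 0.11 with a 95% interval of -0.22 to 0.24, and it was not called (adjusted p = 0.96). That interval holds none of the point estimates of the 7 other members. It does overlap the intervals of Gimap1 (-0.63 to -0.10) and Gimap7 (-0.60 to -0.18), and such intervals do not test a difference between genes. To measure the split within each array, Gimap5 was set against the mean of the other 7 members, a comparison chosen after these values were seen. The size of this difference has no meaning of its own, as the probes differ, and only its shift between groups is read.

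Gimap5 minus the mean of the other 7 was -0.19, -0.17 and -0.18 on the unstimulated arrays and 0.47, 0.47 and 0.42 on the DMSO arrays. The groups did not overlap and the mean shifted by 0.63 log2 units. The difference was 0.57, 0.51 and 0.63 with Torin 1 and 0.52, 0.39 and 0.23 with PP242, so all 9 activated arrays lay above all unstimulated arrays. Each shift from unstimulated cells had an exact permutation p of 0.1 (two-sided), the smallest that 3 arrays against 3 allow. After Benjamini-Hochberg adjustment over the 12 such tests made, this permutation p was 0.171. Neither value could fall under 0.05 with so few arrays, so the test cannot decide on the shift. Against Gimap3 alone, its neighbour in the cluster, Gimap5 moved from a mean of -0.51 in unstimulated cells to 0.18 with DMSO, 0.25 with Torin 1 and 0.36 with PP242. Whether probes of the close relatives Gimap3 and Gimap5 bind each other's transcripts was not tested.

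**Figure D2:**
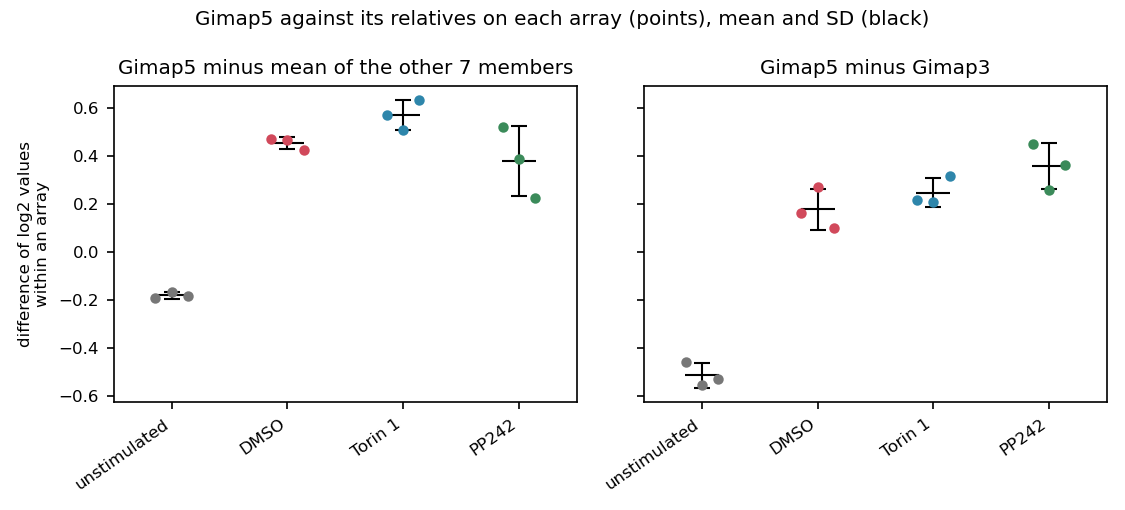
Difference of log2 values within an array (vertical axis) between Gimap5 and the mean of the other 7 members (left) or Gimap3 (right), by group; points are arrays, the bar the mean and the whiskers the SD of 3 arrays. The unstimulated arrays, from -0.19 to -0.17 on the left, lie under all activated arrays.

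With Torin 1 present during activation, every member had a higher mean than with DMSO, and 4 were called higher: Gimap6, Gimap5, Gimap3 and Gimap4. Gimap6 measured 9.33, 9.28 and 9.24 on the Torin 1 arrays, all above its highest DMSO value of 8.80. Gimap5 measured 9.56, 9.55 and 9.63 with Torin 1, all above its highest DMSO value of 9.19. Both genes had little spread between Torin 1 arrays, with an SD of 0.05 for Gimap6 and 0.04 for Gimap5. Gimap3 measured 9.34, 9.34 and 9.32 with Torin 1, and Gimap4 measured 10.84, 10.74 and 10.83. They too lay above all DMSO arrays.

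The log2 changes with Torin 1 were 0.63 ± 0.10 for Gimap6 (1.55-fold, adjusted p = 0.00205), 0.49 ± 0.11 for Gimap5 (1.40-fold, 0.0123), 0.42 ± 0.10 for Gimap3 (0.0234) and 0.34 ± 0.09 for Gimap4 (0.0347). The other 4 did not pass: Gimap1 with 0.41 ± 0.12 (adjusted p = 0.0542), Gimap7 with 0.31 ± 0.10 (0.0734), Gimap9 with 0.27 ± 0.10 (0.112) and Gimap8 with 0.22 ± 0.12 (0.305). The 95% intervals reached from 0.15 to 0.68 for Gimap1 and from -0.03 to 0.47 for Gimap8. Of all genes 3.33% were called higher with Torin 1. For 7 members, all but Gimap8, every Torin 1 array lay above every DMSO array, as for 12.3% of all genes. The median change of the family was 0.38, beside 0.01 for all genes.

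The Torin 1 count rested on few arrays. It ran from 1 to 4 when single arrays were left out, with 1 call without DMSO replicate 3 and 2 calls without any 1 of the Torin 1 arrays. It was 6 with the filter on dim genes, where Gimap1 and Gimap7 were called too. Gimap6 was called under all 22 alternatives. The call of Gimap5 was lost under 1 of them, without DMSO replicate 3 (change 0.42, adjusted p = 0.0517), that of Gimap3 under 5 and that of Gimap4 under 10.

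With PP242, 7 members were called higher than with DMSO, all but Gimap3. Gimap4 measured 11.31, 11.23 and 11.11 on the PP242 arrays, against at most 10.51 with DMSO. Gimap6 measured 9.37, 9.44 and 9.41, against at most 8.80 with DMSO. Both genes overlapped with their unstimulated arrays. Gimap5 measured 9.72, 9.53 and 9.39 with PP242, and Gimap8 measured 9.07, 8.69 and 8.83. Both lay above all DMSO arrays, and in both PP242 replicate 1 was the highest.

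The log2 changes with PP242 were 0.76 ± 0.10 for Gimap6 (1.69-fold, adjusted p = 0.000205) and 0.76 ± 0.09 for Gimap4 (1.69-fold, 8.03e-05). Those of the other 5 called members ran from 0.45 for Gimap5 (0.0093) to 0.50 for Gimap1 (0.0114). Gimap9 (0.47), Gimap7 (0.46) and Gimap8 (0.48) lay between. Gimap3 changed by 0.27 ± 0.10 and was not called (adjusted p = 0.0928, 95% interval 0.05 to 0.50). It measured 9.27, 9.27 and 9.03 with PP242, and without PP242 replicate 3, the low array, its change was 0.35 and it was called.

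Of all genes 7.38% were called higher with PP242, beside 7 of 8 members. In all 8 members every PP242 array lay above every DMSO array, as in 15.0% of all genes. The median change of the family was 0.47, beside 0.01 for all genes. The call of Gimap8 was lost without PP242 replicate 1 (change 0.38, adjusted p = 0.0581), and the counts without single arrays ran from 6 to 8. The comparisons with DMSO all share the 3 DMSO arrays, so the fall on activation and the higher values with each inhibitor are not independent of each other.

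**Figure D3:**
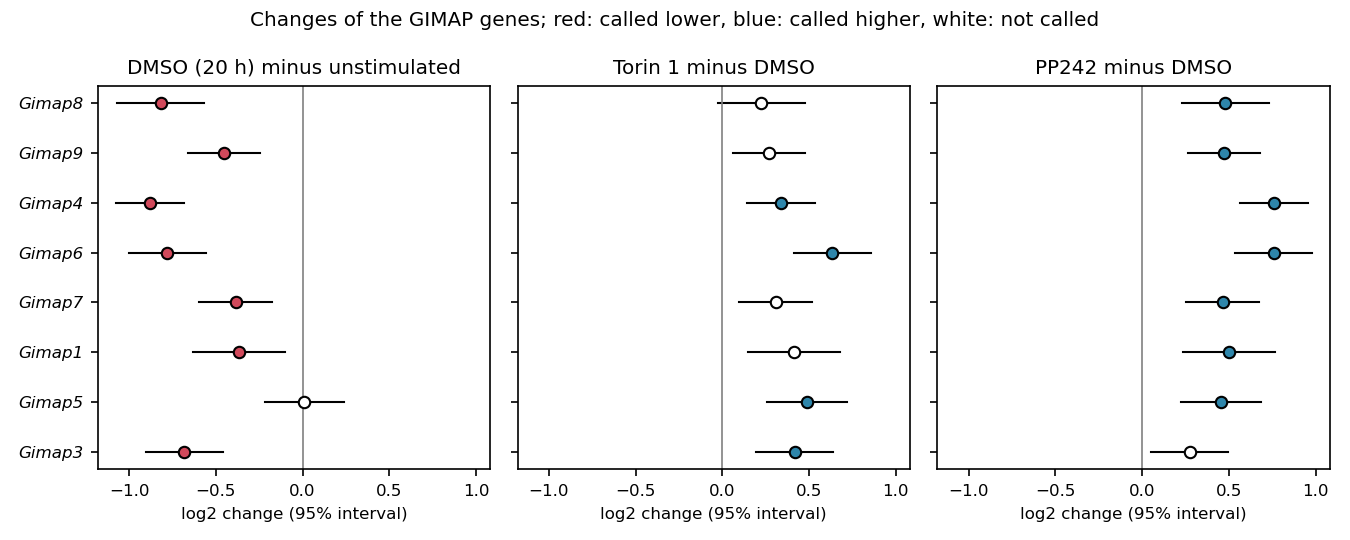
Log2 change of each member with its 95% interval (horizontal axis) on activation (left), with Torin 1 (middle) and with PP242 (right), from limma over 12 arrays. Red points were called lower, blue points called higher and white points not called. All points but Gimap5 lie left of 0 on activation, and all lie right of 0 with both inhibitors.

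Against unstimulated cells the members split. With Torin 1, 2 members were called lower (3.31% of all genes) and 1 higher (4.42%). Gimap8 was lower by 1.51-fold (log2 change -0.60 ± 0.12, adjusted p = 0.00576) and Gimap4 by 1.46-fold (-0.54 ± 0.09, 0.00195), with all Torin 1 arrays under all unstimulated arrays. Gimap5 was higher by 1.41-fold (0.50 ± 0.11, 0.0102), with all Torin 1 arrays above. These 3 calls held under all 22 alternatives. In 5 members every Torin 1 array lay under every unstimulated array, as in 15.3% of all genes. The comparison with PP242 that follows uses the same unstimulated arrays.

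With PP242, Gimap5 was again higher than in unstimulated cells, by 1.38-fold (0.46 ± 0.11, adjusted p = 0.0306), beside 1.73% of all genes called higher. Gimap3 was lower by 1.33-fold (-0.41 ± 0.10, 0.0497), beside 1.34% of all genes called lower. Neither call was firm. That of Gimap3 was lost under 17 of 22 alternatives and that of Gimap5 under 7, including without any 1 unstimulated array and without PP242 replicate 1 or 2. Without single arrays 0 or 1 members were called. Gimap4 (-0.12, 95% interval -0.32 to 0.07) and Gimap6 (-0.02, -0.24 to 0.20) overlapped with unstimulated cells. In Gimap8 all PP242 arrays lay under all unstimulated arrays (-0.34 ± 0.12), but it was not called (adjusted p = 0.18).

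The inhibitors were given at different doses, 50 nM and 500 nM, so the following compares the samples and not the compounds at 1 dose. No member was called between PP242 and Torin 1 by limma, where 0.392% of all genes were, and 2 members had an unadjusted p under 0.05. Gimap4 was higher with PP242 by 0.42 ± 0.09 (95% interval 0.22 to 0.61, adjusted p = 0.0749), with every PP242 array above every Torin 1 array, and it was called in 3 of the 22 alternatives. Gimap8 was higher by 0.26 ± 0.12 (interval 0.01 to 0.51, adjusted p = 0.401), with overlapping arrays. Gimap5 (-0.03, interval -0.26 to 0.19) and Gimap3 (-0.14, interval -0.37 to 0.08) had slightly lower means with PP242. In 4 members the PP242 arrays all lay above the Torin 1 arrays (7.89% of all genes) and in Gimap3 all below (9.10%).

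**Figure D4:**
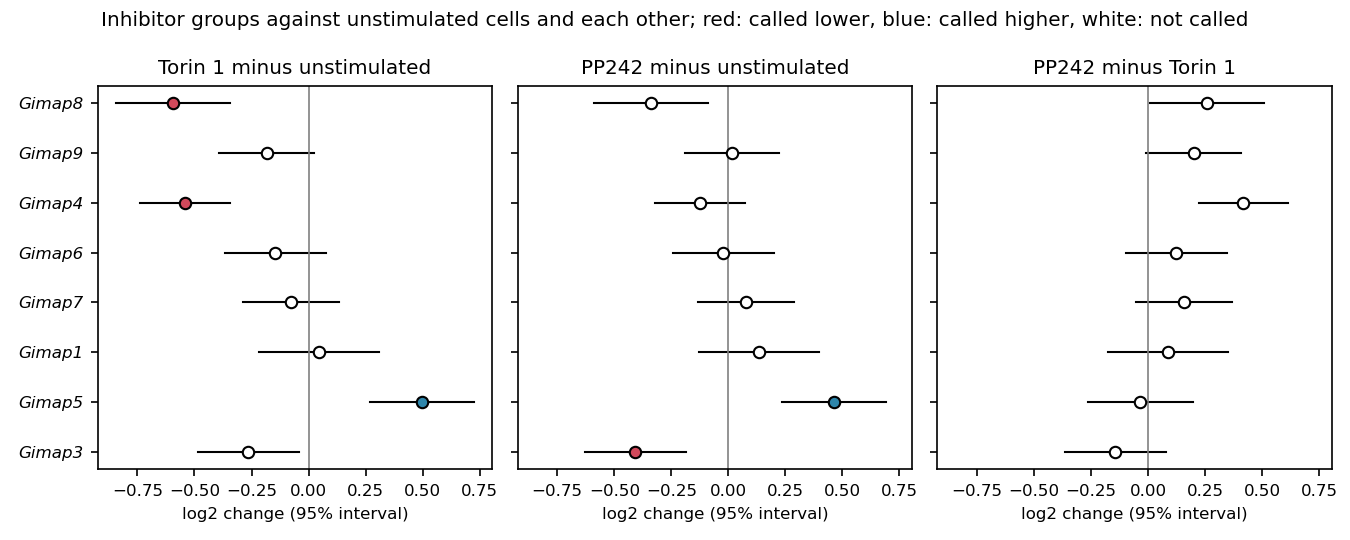
Log2 change of each member with its 95% interval (horizontal axis) for Torin 1 (left) and PP242 (middle) against unstimulated cells and for PP242 against Torin 1 (right). Red points were called lower, blue points called higher and white points not called. Gimap5 lies at 0.50 and 0.46 above unstimulated cells, and Gimap8 and Gimap4 under them with Torin 1.

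Ordered by group mean, DMSO was lowest in 7 members. For Gimap8, Gimap4, Gimap6 and Gimap3 unstimulated cells had the highest mean, for Gimap9, Gimap7 and Gimap1 PP242, and for Gimap5 Torin 1. Most steps between neighbours in these orders were not called. An uncalled step could still have groups without overlap, as in Gimap4 from Torin 1 to PP242. Called steps were those from DMSO to Torin 1 in Gimap4 and Gimap6, from DMSO to unstimulated in Gimap1, and from DMSO to PP242 in Gimap5.

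The genes beside the cluster did not show the family's pattern of calls. The nearest measured genes were AI854703 beside Gimap8 and Tmem176b beside Gimap3, which changed on activation by 0.08 ± 0.10 (adjusted p = 0.617) and -0.32 ± 0.16 (0.163). Of the 10 nearest measured genes, 5 on each side, only Repin1 was called on activation, and it was higher (0.56 ± 0.19, 0.0456). None of the 10 was called with Torin 1 or PP242. Of all genes 11.8% were called higher and 12.1% lower on activation. With Torin 1, 3.33% were called higher and 4.79% lower, and with PP242, 7.38% and 9.27%. For 10 genes these counts are near those shares. The medians of the 10 were 0.05 on activation, -0.05 with Torin 1 and -0.05 with PP242, against -0.57, 0.38 and 0.47 for the 8 members. Only 6 of the 10 passed the dim level, so changes of the other 4 were measured poorly.

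**Figure D5:**
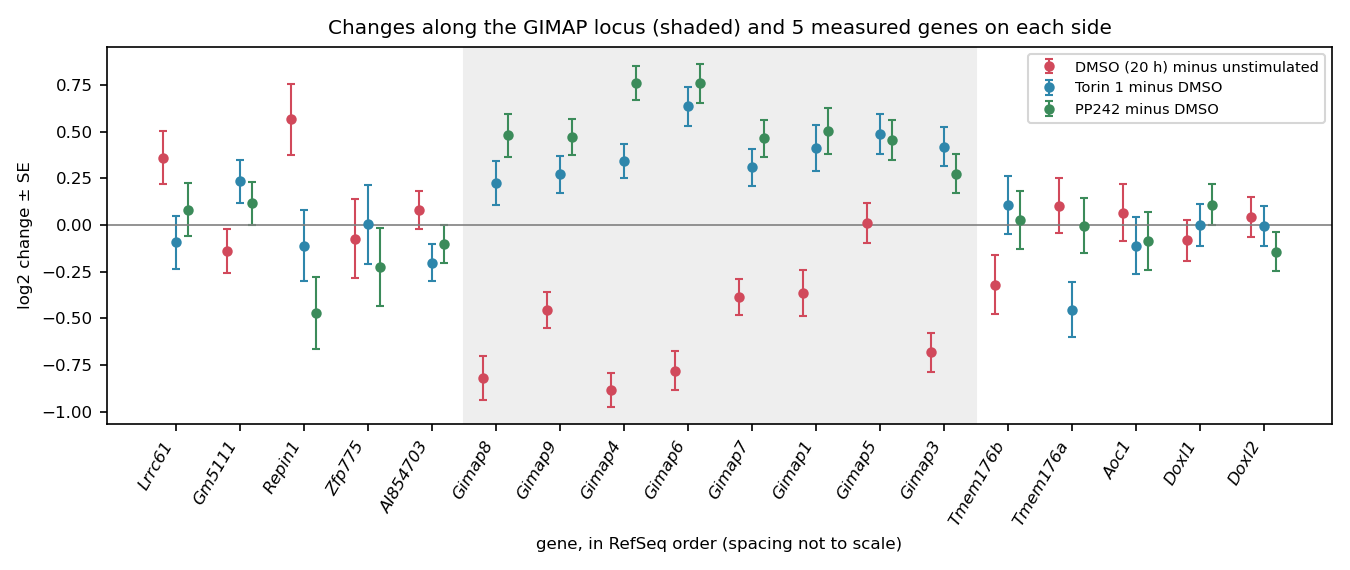
Log2 change ± SE (vertical axis) of the 8 members (shaded) and 5 measured genes on each side, in RefSeq order with spacing not to scale, on activation (red), with Torin 1 (blue) and with PP242 (green). Of the 10 outer genes, 1 was called on activation, Repin1 (0.56), against 7 of the 8 members. Of all genes 11.8% were called higher and 12.1% lower.

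A list of other genes of resting T cells, chosen with earlier results of these data known, was counted beside the family. Of 22 measured naive and quiescence genes, 14 were called lower and 2 higher on activation (median -0.55), beside 12.1% and 11.8% of all genes. The 2 called higher were Igfbp4 (1.14) and Dapl1 (0.65). Those called lower included Il7r, the receptor of the survival cytokine IL-7 (-2.02), Klf3 (-1.25) and S1pr1, which guides exit from lymph nodes (-1.24). With Torin 1, 11 were called higher and 1 lower (median 0.34), and with PP242, 15 higher and 1 lower (0.52), beside 3.33% and 7.38% of all genes called higher. The 1 called lower was Dapl1 with either inhibitor. Il7r rose by 0.77 with Torin 1 and by 1.95 with PP242. Of 18 early activation genes, 15 were called higher on activation (median 1.24), 2 were called lower with Torin 1 and 10 with PP242. Of all genes, 4.79% were called lower with Torin 1 and 9.27% with PP242.

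Genes of 2 other GTPase families were counted too. Of 14 interferon-inducible GTPases, which defend cells against microbes, 6 were called higher on activation and none lower (median 0.37), beside 11.8% and 12.1% of all genes, led by Iigp1 (2.01) and Irgm1 (1.79). None of them was called with Torin 1, and 2 were called lower with PP242. Of 12 septins, GTPases of the cytoskeleton, 3 were called higher and 1 lower on activation (median 0.17), beside the same shares of all genes. Septin11, 1 of the 3, rose by 1.68 on activation and was called lower with Torin 1 (-0.79) and PP242 (-1.36). The counts of these lists were not set against the family by a test.

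Lists of autophagy, cell death and Gimap5 deficiency genes were mixed. Of 12 ATG8 and autophagy genes, listed for the tie of Gimap6 to autophagy, 5 were called lower and 1 higher on activation (median -0.23). Of all genes 12.1% were called lower and 11.8% higher. With Torin 1, 3 of the 12 were called higher and with PP242, 2, and none lower. Of all genes 3.33% and 7.38% were called higher with these inhibitors, and 4.79% and 9.27% lower. Map1lc3b, an ATG8 protein, changed by -0.69, 0.43 and 0.57 on activation, with Torin 1 and with PP242, and was called each time. Of 13 BCL2 family genes, regulators of cell death, 4 were called lower and 3 higher on activation. With Torin 1, 3 were called lower and 2 higher, and with PP242, 3 lower and 3 higher. Bcl2, which protects resting T cells, changed by -0.73, 0.48 and 0.74 in the same 3 comparisons, and Bcl2l1, its relative in activated cells, by 1.07, -0.53 and -1.004. Of 10 genes tied to Gimap5 deficiency in mice, 2 were called lower and 2 higher on activation, near the shares of all genes. With Torin 1, 1 was called higher and none lower, and with PP242, 2 higher and 1 lower. Gsk3b, a kinase that Gimap5 restrains, changed by -0.61, 0.38 and 0.47 on activation, with Torin 1 and with PP242.

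Some platelet markers moved with the family. Of 7 measured, 3 were called lower on activation (Itga2b, Itgb3 and Treml1), beside 12.1% of all genes. With Torin 1, 1 was called higher than with DMSO (3.33% of all genes), and with PP242, 2 (7.38%). The mean of the 7 lay between 5.46 and 5.51 on the unstimulated arrays, 5.10 and 5.18 with DMSO, 5.33 and 5.40 with Torin 1 and 5.29 and 5.39 with PP242. Of the 7, Itga2b, Itgb3, Gp9 and Treml1 lay above the dim level in every group, with group means of 5.84 to 6.49, 6.38 to 7.39, 6.17 to 6.47 and 5.16 to 5.47. Gp6 lay near it, at 4.50 to 4.75. Pf4 and Ppbp stayed under it on every array, at no more than 4.34 and 4.25. Among 6 B cell markers, 1 was called lower and 1 higher on activation. Of 5 NK cell markers, 2 were called lower, of 7 endothelial markers 1, and none of 7 myeloid markers was called. Beside these stand 12.1% of all genes called lower and 11.8% called higher. Epb42, the 1 erythroid marker measured, was called lower on activation (-0.42, adjusted p = 0.00937), at levels under the dim level. Neither CD8 marker was called, though all DMSO arrays lay under all unstimulated arrays in Cd8b1 (-0.39, adjusted p = 0.0655). Against DMSO, 2 B cell markers were called lower with Torin 1 (Cd22 and Ms4a1) and 1 with PP242 (Cd22). Of all genes 4.79% and 9.27% were called lower. No NK, endothelial, myeloid, erythroid or CD8 marker was called against DMSO. With Torin 1 against unstimulated cells, Cd8b1 (-0.68), Cd79b (-0.56), Csf1r (-0.46) and Itgb3 (-0.71) were called lower and Eomes (0.83) higher. With PP242 only Cd8b1 (-0.66) was called against unstimulated cells, leaving aside the T and Treg markers. Between the inhibitors only Eomes was called, lower with PP242 (-0.92). Of all genes 3.31% were called lower and 4.42% higher with Torin 1 than in unstimulated cells, and with PP242 1.34% and 1.73%. The part of these markers in the family's changes was not tested.

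By the distance of the 3 changes (activation, Torin 1 and PP242), the genes most like the median of the family among 14804 genes past the dim level were Numa1, 1700012D14Rik, Chd9, Nufip2 and Mef2d. Their root mean square distances were 0.01 to 0.02 log2 units. Numa1, a protein of the mitotic spindle, changed by -0.56, 0.39 and 0.48. Nearest to Gimap4, the member with the largest fall, were Ptpre, Ankrd55, Slc49a4, Hnrnpa3 and Mir30d, at distances from 0.037 to 0.044. Of the genes named here, Mir30d was called in none of the 3 comparisons, and 1700012D14Rik was called on activation only. Of the members, Gimap9 lay nearest to the family median, at 0.09 with rank 319 among the 14804 genes. Many genes outside the family thus lay nearer to it than any member. Gimap5 lay farthest of the members, at 0.34 with rank 4327. These likenesses are descriptions over 3 changes that share the DMSO arrays.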

How the data were processed

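RNA of 12 cTreg samples was measured on Affymetrix Mouse Gene 2.0 ST arrays after WT Pico amplification. The deposited values are on the log2 scale, made by the authors with RMA (background correction, quantile normalization and probe summary). The submitters' notes name Partek 6.6. The genome build was not given in the sources used here. The table holds 41345 transcript clusters, of which 23521 carry 1 symbol, 1820 several and 16004 none, and 23328 match the RefSeq table (GRCm38.p6), used for names and gene order. Where a gene had more than 1 cluster, the brightest on average was kept.

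Groups and replicate numbers come from the labels. The 4 group means were fitted with limma 3.58.1 (R 4.3.3, lmFit and eBayes), with no filter and with p-values adjusted by Benjamini-Hochberg over 22180 genes. The methods of the study name an ANOVA, and the linear model without empirical Bayes was an alternative. The procedure was tested on simulated data, where recovery was required only for changes larger than that of any member. Gimap5 differences within arrays were tested by exact permutation. Sequences and promoter windows are RefSeq's. All 8 members are named, with the 5 nearest genes on each side of the cluster, the 5 genes most like the family and up to 3 of each list by size of change. The members and gene lists were chosen with earlier results of these data known. Precision is limited by 3 arrays a group.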

Additional observations from a re-analysis of the deposited data

How the results depend on the processing

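Across 1056 values of members under alternative settings, 978 kept their direction and side of the threshold, 55 kept the direction but lost the call, 12 gained a call and 11 changed sign. For Torin 1 against DMSO, 1 member was called at an adjusted p under 0.01, and 1 to 4 when single arrays were left out. The count was 6 with the filter on dim genes, which added Gimap1 and Gimap7, 6 with trend and robust empirical Bayes, which added Gimap1 and Gimap9, 5 without empirical Bayes, which added Gimap7, and 5 with the median over clusters, which added Gimap1. For PP242 against Torin 1, 1 member (Gimap4) was called with the filter on dim genes, 1 with trend and robust empirical Bayes and 1 without empirical Bayes. For PP242 against unstimulated cells the count was 1 with arrays centred on their medians, 0 with all transcript clusters in the fit, 1 without empirical Bayes, 0 with only the 2 groups, 0 at an adjusted p under 0.01 and 0 to 1 without single arrays. On activation, 6 to 7 members were called without single arrays, and with PP242 against DMSO 6 to 8.

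The sign changes were all of small, uncalled values, and the cause was not tested. With the median over clusters, Gimap1 had -0.0019 (PP242 against Torin 1), -0.0082 (Torin 1 against unstimulated) and -0.010 (PP242 against unstimulated), and Gimap9 had -0.0043 for PP242 against unstimulated after quantile normalization. Without single arrays Gimap5 ran from -0.035 to 0.081 on activation and from -0.12 to 0.043 for PP242 against Torin 1, Gimap1 from -0.0049 to 0.10 for Torin 1 against unstimulated, and Gimap9 from -0.030 to 0.079 for PP242 against unstimulated.

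Replicate numbers showed no strong pairing of the samples: the deviations of same-numbered arrays correlated between -0.07 and 0.06. Still, 7 of 12 arrays correlated best with an array of their own number. Whether that is more than unpaired arrays would give was not tested. With the replicate number as a block, 7 members were called on activation, 3 with Torin 1, 7 with PP242, 0 between the inhibitors, 3 for Torin 1 against unstimulated and 1 for PP242 against unstimulated.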

Other observations

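A second transcript cluster with the symbol Gimap1, 17458377, was dimmer than the one used. It measured 6.53, 6.86 and 6.50 on the unstimulated arrays, 6.20, 5.96 and 6.20 with DMSO, 6.85, 6.30 and 6.55 with Torin 1 and 6.83, 6.44 and 6.16 with PP242. Its change on activation was -0.51 ± 0.19 and was not called (adjusted p = 0.0893, limma over all clusters). With the inhibitors it was not called either. In both clusters of Gimap1 all DMSO arrays lay under all unstimulated arrays.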
